A study of Mus musculus with 12 samples.

Results

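LY6D+ SCA1Int cells are mouse prostate cells, sorted as luminal, that carry LY6D on their surface together with a middle level of SCA1. They were set against the LY6D+ cells on both sides of them, SCA1high and SCA1low, to ask which genes peak or dip at the middle level. The 6 LY6D+ libraries, of 12 in all, were taken by their cell population label: 2 of SCA1Int cells against 2 of SCA1high and 2 of SCA1low cells. All of the cells came from the prostates of wild-type C57BL/6 mice aged 6 to 8 weeks, with no transgene, deletion or treatment in any group. They were sorted from the fraction without CD31, CD45 and Ter119, the surface proteins of endothelium, leukocytes and red cells. The other 6 libraries hold LY6D- cells at the same SCA1 levels and serve for 1 comparison near the end. The libraries are described as biological replicates, without saying whether each came from 1 mouse or a pool, so the p-values cover the spread among libraries, which may be technical. In sorted bulk samples, fewer cells of a type and less RNA per cell cannot be told apart.

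SCA1, the product of Ly6a, is a small membrane-anchored protein that marks epithelial cells of the prostate rich in progenitor activity, many of them in the ducts near the urethra. LY6D is a relative of SCA1 and is known as a marker of luminal cells that survive castration. Mature luminal cells of the outer ducts, under androgen control, fill their endoplasmic reticulum (ER) with secreted proteins such as probasin (Pbsn). Basal cells lie beneath them and carry the keratins encoded by Krt5 and Krt14.

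Levels are CPM, the share of a library's counts that a gene takes, scaled with TMM factors. A log2 fold change against both neighbours compares the SCA1Int level with the midpoint of the SCA1high and SCA1low levels on the log2 scale. A gene was called at an adjusted p below 0.05 (edgeR's quasi-likelihood test). The p-values were adjusted by Benjamini and Hochberg's method across 15270 tested genes. The error given is a standard error (SE), the size of the log2 fold change divided by the square root of the test's F statistic. It rests on a spread estimated from all 12 libraries, LY6D- included, with n = 2 libraries per population.

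Total counts were 15588467 to 19020868 in 5 of the LY6D+ libraries and 8436185 in SCA1high replicate 2, in which 7512 genes had at least 10 counts, against 9805 to 12070 in the others. Single genes varied widely between replicates: of the genes at 20 CPM or more in 1 SCA1Int library, 14.9% were below 1 CPM in the other. The SCA1Int libraries correlated at 0.688 with each other across genes, within the range of 0.608 to 0.731 over all LY6D+ pairs. Features of the ribosomal RNA repeat took 12.2% and 16.9% of the counts at SCA1Int, 6.97% and 16.8% at SCA1high, and 24.4% and 19.5% at SCA1low. Mitochondrial transcripts took 3.05% and 3.26%, 2.12% and 3.01%, and 4.64% and 4.14% in the same order. Both shares were highest at SCA1low, where the secreted proteins described below were highest too, and their part in those results was not tested.

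The genes of both sorted proteins and the basal marker declined with SCA1, with the middle population in between. Ly6a stood at 181 and 245 CPM in the SCA1high libraries, 44.9 and 55.5 CPM in the SCA1Int libraries and 3.37 and 13.5 CPM in the SCA1low libraries, so the SCA1 gates kept their order in RNA. Ly6d stood at 209 and 397 CPM in the SCA1high libraries, 134 and 64.4 CPM in the SCA1Int libraries and 54.7 and 37 CPM in the SCA1low libraries. Krt14, a basal keratin, stood at 539 and 679 CPM in the SCA1high libraries, 374 and 324 CPM in the SCA1Int libraries and 161 and 193 CPM in the SCA1low libraries. Neither neighbour overlapped the SCA1Int libraries for these 3 genes. Taken singly, no step between SCA1Int and a neighbour was called for any of them (edgeR adjusted p from 0.487 to 0.846). Against the midpoint, the log2 fold changes were 0.24 ± 0.60 for Ly6a, -0.25 ± 0.85 for Ly6d and 0.088 ± 0.47 for Krt14 (adjusted p = 1 for each), so none peaked or dipped beyond its error. The luminal label was met only in part. The luminal keratins Krt8 (85.2 and 66.4 CPM at SCA1Int) and Krt18 (129.8 and 128 CPM) and the adhesion protein gene Epcam (62.6 and 47.4 CPM) were present, but basal keratins stood higher, with Krt15 at 2734 and 1482 CPM and Krt5 at 318 and 284 CPM. The basal transcription factor gene Trp63 stood at 72.2 and 197 CPM. The 30 basal genes summed to 6982 and 5424 CPM at SCA1Int, with Krt15 a large part, and the 20 luminal genes to 2013 and 1337 CPM. The 27 tested secreted luminal proteins summed to 2650 and 3920 CPM there and the 25 tested proximal luminal genes to 1501 and 1462 CPM. These lists differ in size and do not give the shares of cell types, but the level of basal markers goes against a purely luminal population. The basal sums were 6472 and 6867 CPM at SCA1high and 3976 and 5152 CPM at SCA1low. Of the markers of other cell types, the 22 tested endothelial genes summed to 36.7 and 373 CPM at SCA1Int, 298 to 704 at SCA1high and 83.3 to 232 at SCA1low. The 22 tested fibroblast and smooth muscle genes summed to 1610 and 1620 CPM, 2230 to 3300 CPM and 1180 to 1600 CPM in the same order, mostly from Dcn (894 and 817 CPM at SCA1Int), a matrix proteoglycan. Of 31 leukocyte genes, 10 had enough counts to be tested, not among them Ptprc, which encodes CD45; they summed to 28.1 and 50.3 CPM at SCA1Int, 43.7 to 96.6 at SCA1high and 6.66 to 91.5 at SCA1low. The defining endothelial gene Cdh5 was at 0 and 7.15 CPM in the SCA1Int libraries, and 0 of 13 neuroendocrine genes could be tested. The part of these cell types in the results was not tested.

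Against both neighbours together, 3 of 15270 genes were called in SCA1Int cells (0.0196%): 2 were higher (0.0131%) and 1 was lower (0.00655%). The higher 2 were Malat1, a long RNA that stays in the nucleus at splicing speckles, and Gm37376, an unverified transcript annotated inside it. The lower 1 was B2m, which encodes the light chain that every classical MHC class I molecule needs to reach the cell surface. With RLE size factors in place of TMM the split was 2 higher and 0 lower. The count of 3 was 0 without SCA1Int replicate 1, 1 without LY6D- SCA1Int replicate 1 and 8 without SCA1Int replicate 2. It was 5 without SCA1high replicate 2 or LY6D- SCA1high replicate 1, and 6 without SCA1low replicate 2, LY6D- SCA1high replicate 2 or either LY6D- SCA1low library. Before adjustment, 827 genes were higher (5.42%) and 139 lower (0.91%) at p below 0.05.

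B2m (ENSMUSG00000060802, chromosome 2, 122147686 to 122153083, plus strand) was the called gene with a dip. It stood at 339 and 356 CPM in the SCA1high libraries, 129.6 and 137 CPM in the SCA1Int libraries and 1111 and 672 CPM in the SCA1low libraries. Both SCA1Int libraries lay below all 4 others, at about the same level as each other. B2m fell by 2.06 on the log2 scale against the midpoint (SE 0.36, edgeR adjusted p = 0.0328). Against SCA1low the log2 fold change was -2.74 ± 0.40 (adjusted p = 0.000577), and against SCA1high it was -1.38 ± 0.38 (unadjusted p = 0.00124, adjusted p = 0.846), so the call rests on both neighbours together and on SCA1low alone. The call against both was lost in 8 of 23 other settings, among them leaving out either SCA1Int library (adjusted p = 0.337 without replicate 1 and 0.188 without replicate 2) SCA1low replicate 1 (0.146) and LY6D- SCA1Int replicate 1 (0.0536); the log2 fold change stayed between -2.22 and -1.86. The gene lies within Patl2 on the opposite strand, and Patl2 itself had too few counts to be tested.

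The sequence before the B2m start is printed because this gene was called lower against both neighbours together. Beside it stands the sequence of Cxcl10, a chemokine gene of the same interferon list whose log2 fold change was positive and was not called. Both are from RefSeq on GRCm38.p6, 5′ to 3′ on the strand of the gene, and end where the annotated exon begins. Capitals mark matches on either strand to the core of the interferon-stimulated response element, GAAANNGAAA, and to GGGAANNNCC, a form of the NF-kB site. In both promoters the interferon element comes first.
B2m (chr2:122147437-122147685, plus strand): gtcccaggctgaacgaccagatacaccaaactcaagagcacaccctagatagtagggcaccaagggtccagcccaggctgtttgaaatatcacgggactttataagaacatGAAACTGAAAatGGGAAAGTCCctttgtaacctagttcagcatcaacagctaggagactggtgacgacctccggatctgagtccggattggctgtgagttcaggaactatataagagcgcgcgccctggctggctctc
Cxcl10 (chr5:92348890-92349139, minus strand): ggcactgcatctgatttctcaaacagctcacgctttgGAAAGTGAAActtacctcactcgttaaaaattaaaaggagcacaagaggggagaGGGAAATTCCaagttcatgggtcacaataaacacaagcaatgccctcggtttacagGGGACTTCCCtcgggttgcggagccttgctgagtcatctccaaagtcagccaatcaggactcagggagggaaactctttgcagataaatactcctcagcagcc
Among all 32851 promoters of the table, in the 250 bases before the start, GAAANNGAAA occurred in 2.98% and GGGAANNNCC in 4.94%. Of the 29 genes of the interferon and MHC list found there, 14 held the first and 6 the second. These are matches of letters, and no binding was measured.

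Of 37 tested members of the interferon response and MHC class I list, 1 was called against both neighbours, B2m itself. Their median log2 fold change was -0.13, against 0.085 over all tested genes, and it was 0.083 with RLE size factors. At an unadjusted p below 0.05, Cxcl10 and Iigp1, an interferon-induced GTPase gene, were higher and B2m was lower; over all tested genes 5.42% were higher and 0.91% lower, so the 2 higher of 37 are near that background. Cxcl10 stood at 166 and 125 CPM at SCA1Int against 135 and 28.8 at SCA1high and 9.35 and 26.4 at SCA1low, a log2 fold change of 1.93 ± 0.88 (adjusted p = 0.768). Iigp1 stood at 44.2 and 30.1 CPM at SCA1Int against 41.9 and 19.3 at SCA1high and 7.28 and 11.7 at SCA1low, with 1.12 ± 0.53 (adjusted p = 0.775). For both genes SCA1Int lay above SCA1low in every library and overlapped SCA1high. H2-D1, a heavy chain that pairs with the B2m protein, stood at 172 and 199 CPM at SCA1Int against 405 and 519 at SCA1high and 178 and 189.6 at SCA1low. Its SCA1Int level was close to that of SCA1low, with a log2 fold change of 0.013. Against SCA1high it was -1.32 ± 0.39 (unadjusted p = 0.0023, adjusted p = 0.846). H2-K1, another heavy chain, stood at 339 and 414 CPM at SCA1Int against 776 and 435 at SCA1high and 431 and 304 at SCA1low, and overlapped SCA1low. Tapbp, which loads peptides onto class I molecules, stood at 33.8 and 36.3 CPM at SCA1Int against 42.7 and 178 at SCA1high and 45.2 and 86.2 at SCA1low: both SCA1Int libraries were lowest, with -1.28 ± 0.88 on the log2 scale (adjusted p = 0.917).

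Malat1 (ENSMUSG00000092341, chromosome 19, 5795690 to 5802672, minus strand) was the most abundant of the called genes. It stood at 4730 and 7099 CPM in the SCA1high libraries, 19160 and 15160 CPM in the SCA1Int libraries and 17160 and 12110 CPM in the SCA1low libraries. The SCA1Int libraries lay above both SCA1high libraries, but the higher SCA1low library fell between them. Against the midpoint Malat1 rose by 0.88 ± 0.14 (adjusted p = 0.0203). Taken apart, it rose by 1.54 ± 0.17 against SCA1high (adjusted p = 2.48e-05), and its log2 fold change against SCA1low was 0.23 ± 0.17 (adjusted p = 0.822). Malat1 thus stood apart at SCA1high and was not shown to peak at SCA1Int. The call against both neighbours was lost in 5 of 23 other settings, among them DESeq2 (adjusted p = 0.295) and the fit without SCA1Int replicate 1 (0.337). Gm37376 (chromosome 19, 5801941 to 5802393) lies inside Malat1 on the opposite strand. Its log2 fold change was 0.99 ± 0.18 (adjusted p = 0.0328), and without a stated strand setting its reads cannot be told from those of Malat1. Neat1, the neighbouring nuclear RNA gene, stood at 854 and 589 CPM at SCA1Int against 246 and 353 at SCA1high and 730.3 and 449 at SCA1low, with 0.78 ± 0.39 against the midpoint (adjusted p = 0.792).

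**Figure D1:**
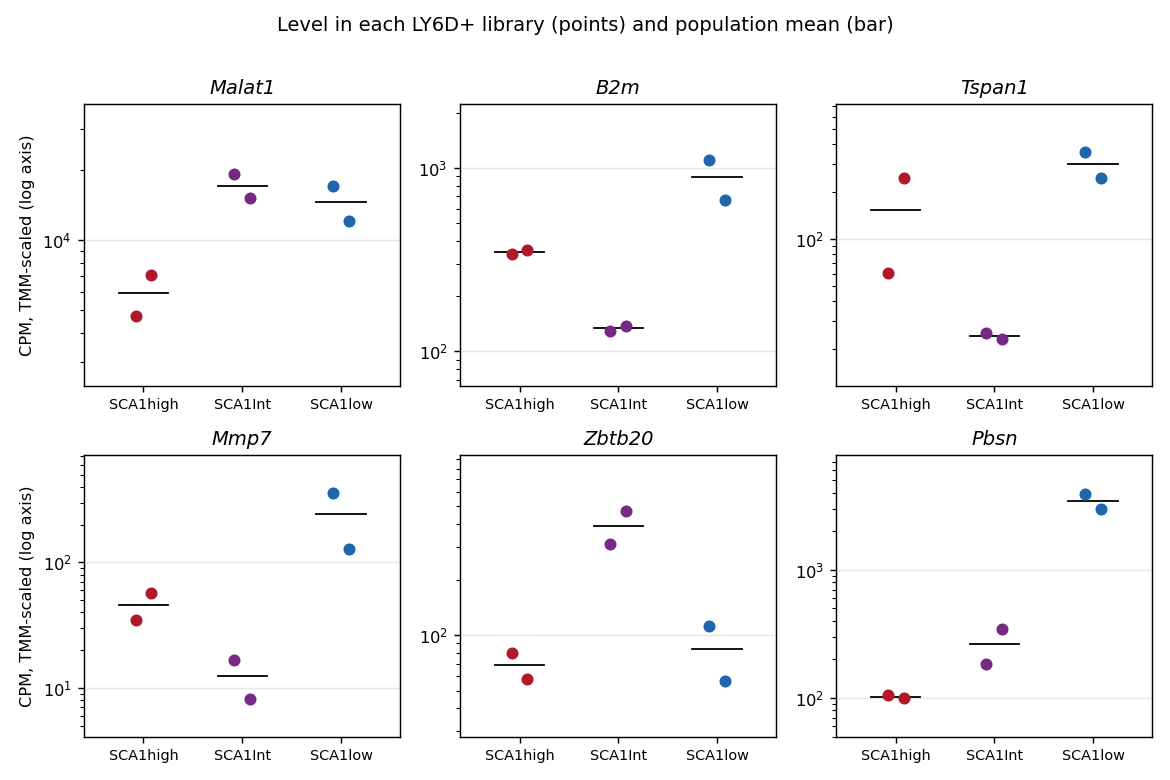
CPM on a log axis in the 6 LY6D+ libraries for Malat1, B2m, Tspan1, Mmp7, Zbtb20 and Pbsn, with 1 point per library and a bar at the mean of the 2 libraries of a population. B2m, Tspan1 and Mmp7 are lowest in both SCA1Int libraries and Zbtb20 is highest there, while Malat1 is low only at SCA1high and Pbsn climbs towards SCA1low.

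Because few genes were called, the next genes by p whose SCA1Int libraries lay beyond all 4 others are given as values; none of them passed the test. On the low side Tspan1, which encodes a tetraspanin membrane protein of epithelia, came closest. Tspan1 stood at 25.3 and 23.2 CPM at SCA1Int against 60.7 and 244 at SCA1high and 359 and 243 at SCA1low, a log2 fold change of -3.14 ± 0.60 (adjusted p = 0.0586). Both SCA1Int libraries were the lowest and close to each other, while the SCA1high libraries differed from each other several-fold. Mmp7, which encodes the secreted metalloprotease matrilysin, stood at 16.6 and 8.15 CPM at SCA1Int against 34.7 and 57.1 at SCA1high and 356 and 127 at SCA1low, with -3.09 ± 0.63 (adjusted p = 0.0895). Both genes were called against SCA1low (adjusted p = 0.00706 for Tspan1 and 0.00263 for Mmp7) and neither against SCA1high (adjusted p = 0.422 for Tspan1).

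Values of the other genes on the low side follow. Sec31a, a coat protein of the vesicles that leave the ER, stood at 7.44 and 30.1 CPM at SCA1Int against 119 and 202 at SCA1high and 165 and 146 at SCA1low, a log2 fold change of -3.07 ± 0.83 (adjusted p = 0.758). Spcs1, a subunit of the signal peptidase that trims proteins entering the ER, stood at 11.1 and 9.69 CPM at SCA1Int against 100.1 and 97.4 at SCA1high and 69.3 and 67.8 at SCA1low, with -2.99 ± 1.01. Hspa5, the main chaperone of the ER, stood at 842 and 1022 CPM at SCA1Int against 1450 and 1298 at SCA1high and 1808 and 2027 at SCA1low, with -0.80 ± 0.22. For these 3 genes the SCA1Int libraries lay below all 4 others, as the choice of genes required, and none passed the adjustment. Fkbp2, a protein-folding isomerase of the ER, stood at 47.2 and 8.31 CPM at SCA1Int against 72.6 and 71.7 at SCA1high and 241 and 216 at SCA1low. Tm9sf3, a membrane protein of the Golgi, stood at 125 and 91.9 CPM at SCA1Int against 230.5 and 173 at SCA1high and 301 and 549.8 at SCA1low. Nucb2, a calcium-binding protein of the secretory route, stood at 13.8 and 6.57 CPM at SCA1Int against 29.3 and 54.8 at SCA1high and 286 and 41.3 at SCA1low. Their log2 fold changes were -2.21 ± 0.74, -1.43 ± 0.48 and -3.02 ± 0.98. Pla2g16, a phospholipase gene, and Ormdl3, which restrains sphingolipid synthesis in the ER, had few counts at SCA1Int: 1.51 and 6.3 CPM and 0.27 and 1.53 CPM, against 43.5 and 11.6 and 16.7 and 16.8 at SCA1high and 54.3 and 87.6 and 31.5 and 58.3 at SCA1low. The small nucleolar RNA Snord13 stood at 62.6 and 58.6 CPM at SCA1Int against 92.8 and 139 at SCA1high and 629 and 349 at SCA1low, with -1.97 ± 0.49 (adjusted p = 0.543). The adjusted p of the 11 genes on the low side ran from 0.0586 to 0.758.

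On the high side the called genes were Malat1 and Gm37376, and those that follow were not called. Zbtb20, which encodes a zinc-finger repressor of transcription, had the smallest p. Zbtb20 stood at 313 and 472 CPM at SCA1Int against 79.8 and 58.1 at SCA1high and 112 and 56.1 at SCA1low, a log2 fold change of 2.36 ± 0.51 (adjusted p = 0.129). It was nearly as far above SCA1high (2.51) as above SCA1low (2.22). Ccnl1, a cyclin tied to splicing, stood at 472 and 755 CPM at SCA1Int against 276 and 237 at SCA1high and 240.1 and 310.4 at SCA1low, with 1.21 ± 0.40. Baz1a, a subunit of a chromatin remodeller, stood at 206 and 317 CPM at SCA1Int against 55.2 and 53.9 at SCA1high and 144 and 155 at SCA1low, with 1.53 ± 0.61. These 3 genes were well counted in every library, with the SCA1Int libraries on top, as the choice of genes required. Exoc5, a subunit of the exocyst that tethers vesicles to the plasma membrane, stood at 90.6 and 108 CPM at SCA1Int against 34.1 and 26.6 at SCA1high and 5.13 and 5.29 at SCA1low. Chtop, which takes part in mRNA export, stood at 106 and 90.8 CPM at SCA1Int against 48.7 and 12.1 at SCA1high and 8.88 and 2.57 at SCA1low. Cmip, an adaptor protein gene, stood at 39.3 and 93.8 CPM at SCA1Int against 19 and 32.3 at SCA1high and 2.68 and 3.66 at SCA1low, and Ddx10, an RNA helicase gene, at 73.9 and 54.7 CPM at SCA1Int against 15.8 and 25.9 at SCA1high and 4.6 and 1.71 at SCA1low. For these 4 the SCA1low libraries were near the bottom, and the log2 fold changes against the midpoint were 2.98, 2.90, 2.88 and 2.99. Fem1b, a substrate receptor of a ubiquitin ligase, Hoxa9, a homeobox gene, Usp4, a deubiquitinase gene, and Ralgds, an activator of Ral GTPases, had log2 fold changes of 4.06 ± 1.49, 3.38 ± 1.29, 3.83 ± 1.46 and 2.62 ± 0.92. Their replicates were wide: Fem1b stood at 35 and 144 CPM in the SCA1Int libraries, and Hoxa9 at 12.4 and 0.706 CPM in the SCA1high libraries. The adjusted p of the 11 genes on the high side ran from 0.129 to 0.758.

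Against SCA1high alone, 4 genes were called (0.0262%), all higher in SCA1Int cells and none lower (0%). Before adjustment 715 were higher (4.68%) and 83 lower (0.544%) at p below 0.05. Beside Malat1 and Gm37376, the called genes were 9530053A07Rik and Tcaf3. Tcaf3 stood at 67.7 and 25.1 CPM at SCA1Int against 6.07 and 1.06 at SCA1high and 869.7 and 423 at SCA1low. It rose by 3.67 ± 0.62 against SCA1high (adjusted p = 0.0101). 9530053A07Rik stood at 419 and 295 CPM at SCA1Int against 108 and 60.9 at SCA1high and 3426 and 3084 at SCA1low, and rose by 2.08 ± 0.27 (adjusted p = 0.000161). Both climbed in steps from SCA1high through SCA1Int to SCA1low, with no overlap between neighbours. Pbsn followed the same order and did not pass here, at 1.36 ± 0.28 (adjusted p = 0.0947). The count was 13 without SCA1high replicate 1, 7 without SCA1Int replicate 1 and 15 without SCA1high replicate 2 and LY6D- SCA1low replicate 2 together. On the low side the smallest p-values were those of Tspan1 (-2.65 ± 0.62), of Gsn, an actin-severing protein gene (-1.83 ± 0.47), of Gsdmc3, a gasdermin gene (-3.67 ± 0.97), and of Emp1, an epithelial membrane protein gene (-1.86 ± 0.51), with adjusted p from 0.422 to 0.846. Gsn stood at 264 and 377 CPM at SCA1Int against 985 and 1291 at SCA1high and 113 and 307 at SCA1low, with means that stepped down with SCA1 and an overlap between SCA1Int and SCA1low.

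Against SCA1low alone, 26 genes were called, all lower in SCA1Int cells (0.17%) and none higher (0%). Without adjustment, 218 were higher (1.43%) and 389 lower (2.55%) at p below 0.05. Of the 26, 19 had a SCA1Int mean between the neighbours and 7 a mean below both. The count fell to 12 without SCA1Int replicate 2 and to 13 without SCA1low replicate 1.

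Of the 26 genes that fell against SCA1low, 8 were on the list of secreted luminal proteins. Pbsn, probasin, is the best known androgen-driven secretion of the mouse prostate and stood at 105 and 99.5 CPM in the SCA1high libraries, 183 and 343 CPM in the SCA1Int libraries and 3910 and 3000 CPM in the SCA1low libraries. It fell by 3.72 on the log2 scale against SCA1low (SE 0.30, adjusted p = 1.69e-08). Spink1, a secreted inhibitor of serine proteases, stood at 742 and 507 CPM in the SCA1high libraries, 653 and 1437 CPM in the SCA1Int libraries and 16940 and 9020 CPM in the SCA1low libraries, and its log2 fold change was -3.63 ± 0.34 (adjusted p = 9.3e-08). Defb50, a beta-defensin gene, stood at 888 and 683 CPM in the SCA1high libraries, 865 and 712 CPM in the SCA1Int libraries and 3499 and 3722 CPM in the SCA1low libraries, with -2.20 ± 0.25 (adjusted p = 8.16e-06). Msmb, microseminoprotein, stood at 13.5 and 50.9 CPM in the SCA1high libraries, 39.8 and 50.4 CPM in the SCA1Int libraries and 722 and 622 CPM in the SCA1low libraries, with -3.90 ± 0.56 (adjusted p = 0.000514). The SCA1low libraries were far above all others for these 4 genes, while SCA1Int overlapped SCA1high for 3 of them and lay above it for Pbsn.

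The fold changes of these genes against the midpoint were therefore negative without a dip below SCA1high: -1.18 ± 0.25 for Pbsn, -1.45 ± 0.28 for Spink1, -1.09 ± 0.22 for Defb50 and -1.70 ± 0.47 for Msmb. None was called (adjusted p = 0.121, 0.0586, 0.0797 and 0.758). Over the 27 tested genes of the list of secreted luminal proteins, 0 were called against both neighbours. At an unadjusted p below 0.05, 9 were lower and 0 higher, where 0.91% and 5.42% of all tested genes were. The median log2 fold change was -1.03 against both, -2.49 against SCA1low and 0.49 against SCA1high, where all tested genes had medians of 0.085, 0.107 and 0.074. Of the 27, 8 were called lower against SCA1low, where 0.17% of all tested genes were. Against SCA1high 0 of the 27 were called; 7 were higher and 3 lower at an unadjusted p below 0.05, where 4.68% and 0.544% of all tested genes were. By these medians SCA1Int lay nearer to SCA1high than to SCA1low.

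Of 10 listed genes of seminal vesicle secretion, 6 were tested, and 3 were called lower against SCA1low, where 0.17% of all tested genes were. Their summed level was 547 to 904 CPM at SCA1Int, 609 to 757 CPM at SCA1high and 3590 to 17900 CPM at SCA1low. Svs4 stood at 11.1 and 66.6 CPM at SCA1Int against 8.77 and 80.8 at SCA1high and 3077 and 607 at SCA1low, and fell against SCA1low (-5.57 ± 1.02, adjusted p = 0.00834). Svs5 stood at 215 and 420.1 CPM at SCA1Int against 157 and 149.7 at SCA1high and 8099 and 1254 at SCA1low, with -3.88 ± 0.78 (adjusted p = 0.025). The SCA1low libraries differed several-fold from each other for both genes, and the part of seminal vesicle RNA in the other results was not tested. The list shares Spinkl, 1 of the 3 called, and Pate4 with the list of secreted luminal proteins.

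Of the 26 genes, 0 were on the ER list described below or the list of glutathione and xenobiotic metabolism. Some others were singled out after their values were seen. Dnajc10, an ER co-chaperone that breaks wrong disulfide bonds, stood at 119 and 80.9 CPM at SCA1Int against 45.7 and 64.3 at SCA1high and 579 and 555 at SCA1low, and its log2 fold change was -2.50 ± 0.47 (adjusted p = 0.0102). Prdx6, a peroxiredoxin, stood at 158 and 79.6 CPM at SCA1Int against 199.5 and 127 at SCA1high and 518 and 791 at SCA1low, with -2.46 ± 0.42 (adjusted p = 0.00342). Tgm4, the prostate transglutaminase, and Zdhhc3 overlap on opposite strands and were both called, at -3.15 ± 0.65 and -3.11 ± 0.49, and their reads cannot be told apart. The rest included Rn7sk, the 7SK RNA that holds back transcription elongation (-2.06 ± 0.44), the paired features Gm24447 and Gm26315 with nearly equal counts, and the mitochondrial ribosomal RNA mt-Rnr1 (-1.30 ± 0.26). On the high side the smallest p was that of S100a6, a calcium-binding protein gene, which stood at 669.7 and 449 CPM at SCA1Int against 991 and 1103 at SCA1high and 69.5 and 179 at SCA1low. Its log2 fold change was 2.17 ± 0.48 (adjusted p = 0.0592), and on the log2 scale its SCA1Int level was nearer to SCA1high.

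No gene was called in the same direction against both neighbours taken singly. At an unadjusted p below 0.05 in both, 26 genes were higher (0.17%) and 28 lower (0.183%), and DESeq2 called 11 higher and 6 lower. The higher DESeq2 calls included Zbtb20, but also Ccl25, with log2 fold changes of 24.6 against SCA1high and 23.9 against SCA1low. They also held 2 pairs with equal values, Gm14176 with Gm5931 and Gm13238 with Gm13241. The lower 6 were Tspan1, Sec31a, Ormdl3, N6amt1 and the overlapping Rrnad1 and Mrpl24. Without SCA1high replicate 1, Tspan1 was called lower against both. Among the 5705 genes with a mean log2 CPM of 3 or more, the SCA1Int mean lay between its neighbours in 38.5%, above both in 27.6% and below both in 33.8%. Both SCA1Int libraries lay above all 4 others in 319 of these genes (5.59%) and below all 4 in 376 (6.59%). Over all 15270 tested genes the shares were 5.22% and 3.01%. The LY6D+ libraries can be split 2 against 4 in 15 ways. If the population made no difference, each pattern would be met in 1 of 15 (0.067). None of these shares was above that, so the pattern alone does not mark a peak or a dip. Of the genes that lay on top against each neighbour, Usp9x, an X-linked deubiquitinase gene, stood at 141 and 211 CPM at SCA1Int against 42.8 and 64.8 at SCA1high and 50.1 and 60.0 at SCA1low, and Sfpq, a splicing factor gene, at 535 and 700.2 CPM at SCA1Int against 352 and 383 at SCA1high and 368 and 335 at SCA1low. Pcna, the sliding clamp of DNA replication, stood at 100 and 108 CPM at SCA1Int against 37.9 and 1.53 at SCA1high and 20.0 and 4.2 at SCA1low. Their log2 fold changes were 1.69 ± 0.80, 0.78 ± 0.38 and 2.75 ± 1.19, each with an adjusted p of 0.76 or more. Rrnad1 and Mrpl24, which overlap on opposite strands and had nearly equal counts, stood at 3.99 and 6.51 and 3.83 and 5.82 CPM at SCA1Int against 62.3 and 59.7 and 61.5 and 59.7 at SCA1high, and cannot be told apart.

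The list of ER chaperones and translocation holds 48 tested genes, and 0 of them were called against both neighbours. At an unadjusted p below 0.05, 5 were lower and 0 higher, where 0.91% of all tested genes were lower. The median log2 fold change was -0.45. Both SCA1Int libraries lay below all 4 others in 5 of the 48: Hspa5, Spcs1, Sec61g, Tram1 and Ssr3. The same held for 3.01% of all tested genes and 6.59% of those with a mean log2 CPM of 3 or more. The genes past the unadjusted p were Hspa5, Spcs1, Pdia6, a disulfide isomerase gene, Sec61g, a subunit of the channel into the ER, and Hsp90b1, another ER chaperone gene. Pdia6 stood at 161 and 60.1 CPM at SCA1Int against 129.6 and 201 at SCA1high and 456 and 301 at SCA1low, a log2 fold change of -1.18 ± 0.45 (adjusted p = 0.758). Sec61g stood at 289 and 266 CPM at SCA1Int against 345 and 299 at SCA1high and 815 and 607 at SCA1low, with -0.79 ± 0.35 (adjusted p = 0.764). Hsp90b1 stood at 291 and 140.3 CPM at SCA1Int against 238 and 198 at SCA1high and 626 and 670.3 at SCA1low, with -0.80 ± 0.38 (adjusted p = 0.775). In Pdia6 and Hsp90b1 the SCA1Int and SCA1high libraries overlapped, in Sec61g they lay close together, and SCA1low stood above in all 3. Hspa5 against SCA1high was -0.56 ± 0.25 (adjusted p = 0.846). Against SCA1low, 11 genes were lower at an unadjusted p below 0.05, where 2.55% of all tested genes were, and the list's median was -0.87. Against SCA1high it was -0.13, and 0.005 with RLE size factors. Calr, the calcium-binding chaperone calreticulin, went the other way from Hspa5: it stood at 842 and 748 CPM at SCA1Int against 287 and 399 at SCA1high and 1146 and 1058 at SCA1low, near SCA1low and above SCA1high (1.21 ± 0.32, unadjusted p = 0.000756, adjusted p = 0.794).

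**Figure D2:**
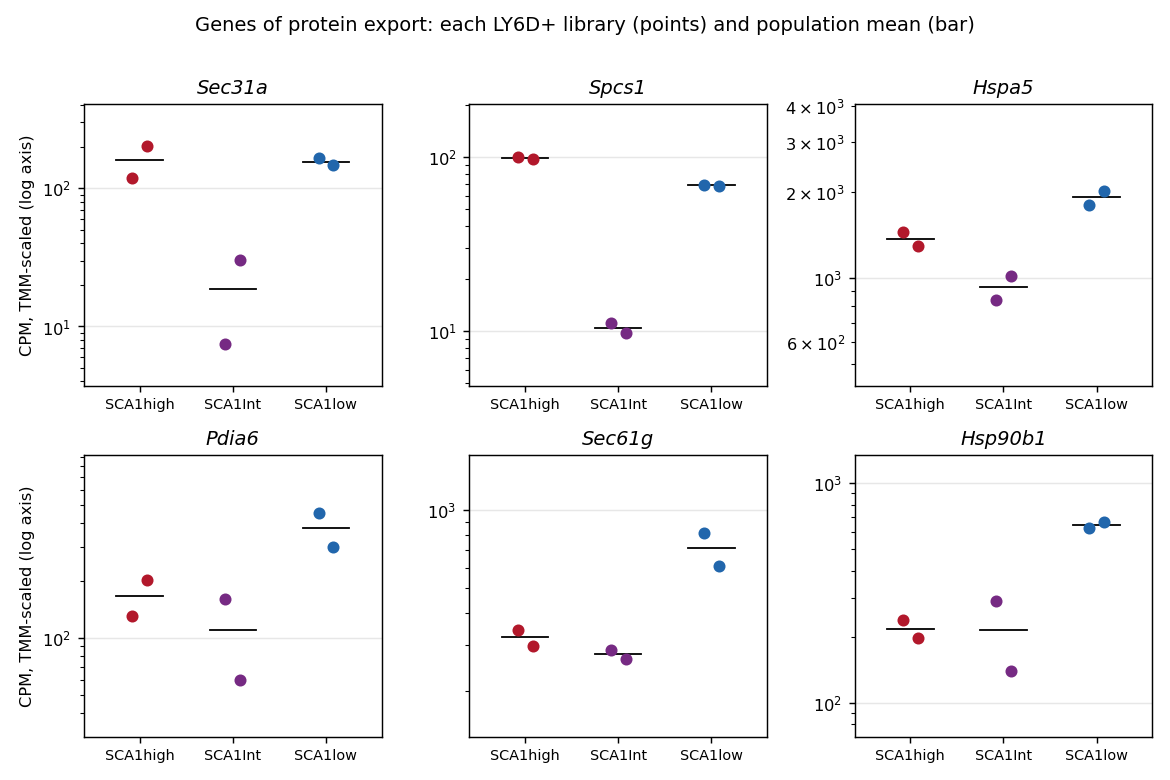
CPM on a log axis in the 6 LY6D+ libraries for 6 genes of protein export, with 1 point per library and a bar at the mean of the 2 libraries. Sec31a, Spcs1, Hspa5 and Sec61g are lowest in both SCA1Int libraries, Sec61g by little. Pdia6, Sec61g and Hsp90b1 are close between SCA1high and SCA1Int and higher at SCA1low.

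The lists of cell identity showed no call against both neighbours. Over the 30 basal genes the median log2 fold change was 0.17, with 0 genes past an unadjusted p of 0.05 in either direction. Dst, which ties keratin filaments to hemidesmosomes, stood at 831 and 719 CPM at SCA1Int against 439.5 and 344 at SCA1high and 526 and 643 at SCA1low, with 0.70 ± 0.42 (adjusted p = 0.908), and both SCA1Int libraries were on top. Krt5 stood at 318 and 284 CPM at SCA1Int against 359 and 608 at SCA1high and 186 and 460.3 at SCA1low, with no order by SCA1. The 20 luminal genes had a median of -0.55, with 2 lower at an unadjusted p below 0.05 (0.91% of all tested genes), Spint2 and the claudin gene Cldn3 (-2.23 ± 1.07). Spint2, an inhibitor of surface serine proteases, stood at 19.5 and 24.2 CPM at SCA1Int against 45.4 and 74.6 at SCA1high and 123 and 70.2 at SCA1low, with -1.80 ± 0.76 (adjusted p = 0.758). Krt18 stood at 129.8 and 128 CPM at SCA1Int against 145 and 161 at SCA1high and 502 and 313 at SCA1low, with -0.95 ± 0.51 (adjusted p = 0.852). The luminal keratin thus differed little between SCA1Int and SCA1high and stood higher at SCA1low. The 25 genes of proximal luminal cells had a median of -0.76 against both, -1.44 against SCA1high and 0.21 against SCA1low, with 6 lower against SCA1high at an unadjusted p below 0.05 (0.544% of all tested genes). The 2 lower against both at an unadjusted p below 0.05 (0.91% of all tested genes) were Tspan1 and Ppp1r1b. Ppp1r1b, a phosphatase inhibitor gene of that list, stood at 0.917 and 8.15 CPM at SCA1Int against 24 and 113 at SCA1high and 28.7 and 4.28 at SCA1low, with -2.89 ± 1.22 (adjusted p = 0.758). The 16 stratified keratins and cornified envelope genes had a median of 0.64 and the 39 cell cycle genes one of 0.23, and the 24 androgen response genes stood at -0.16, with 0 calls in each.

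**Figure D3:**
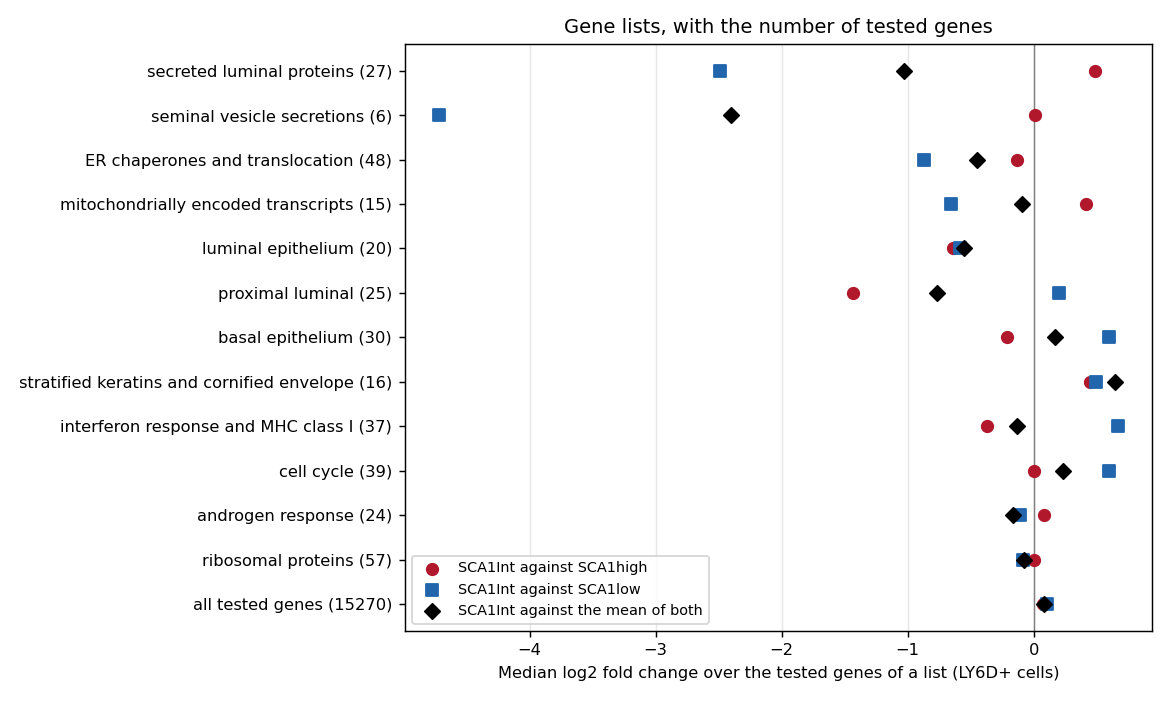
Median log2 fold change of SCA1Int cells over the tested genes of 12 gene lists and over all 15270 tested genes, against SCA1high (circles), against SCA1low (squares) and against the mean of both (diamonds). Secreted luminal proteins lie at -2.49 against SCA1low and 0.49 against SCA1high, and all tested genes lie at 0.107 and 0.074. The comparisons share the SCA1Int libraries.

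In LY6D- cells the same contrast, SCA1Int against the midpoint of its neighbours, gave 18 called genes, all higher (0.118%) and 0 lower (0%). Unadjusted, 1288 genes were higher (8.43%) and 397 lower (2.6%) at p below 0.05. Basal keratins were prominent among the called genes. Krt14 stood at 20.5 and 35.6 CPM at SCA1high, 178 and 192 at SCA1Int and 3.55 and 3.29 at SCA1low in LY6D- cells, a log2 fold change of 4.24 ± 0.47 (adjusted p = 8.65e-06). Krt15 stood at 266 and 230.3 CPM at SCA1high, 964 and 1087 at SCA1Int and 26.4 and 125 at SCA1low, with 2.90 ± 0.35 (adjusted p = 3.1e-05). Ackr4, an atypical receptor that clears chemokines, stood at 0.782 and 5.08 CPM at SCA1high, 157 and 248 at SCA1Int and 0.86 and 1.21 at SCA1low, with 6.84 ± 0.65 (adjusted p = 4.7e-07). Scpep1, a lysosomal carboxypeptidase gene, stood at 58.6 and 14.7 CPM at SCA1high, 325 and 443 at SCA1Int and 5.27 and 10.3 at SCA1low, with 4.51 ± 0.56 (adjusted p = 3.5e-05). These genes peaked in both LY6D- SCA1Int libraries. In LY6D- cells the 22 tested endothelial genes summed to 5625 and 6857 CPM at SCA1high. They summed to 1929 and 2329 CPM at SCA1Int and to 467 and 1038 CPM at SCA1low. The part of this endothelial RNA in the LY6D- contrast, and in its difference from the LY6D+ contrast, was not tested. The count was 8 without LY6D- SCA1Int replicate 1, 8 without LY6D+ SCA1low replicate 2, 10 without LY6D- SCA1high replicate 1, and 8 with RLE size factors.

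The difference between both contrasts, LY6D+ minus LY6D-, was called for 7 genes. The contrast was lower in LY6D+ cells for all 7 (0.0458%) and higher for none (0%). The sign is that of the contrast and does not say in which cells a gene's level was higher. With library size as the only scaling, the contrast was higher for 1 gene and lower for 6. Unadjusted, it was higher for 768 genes (5.03%) and lower for 563 (3.69%) at p below 0.05. Ackr4 was level in LY6D+ cells, at 296 and 312 CPM in the SCA1high libraries, 268 and 327 CPM in the SCA1Int libraries and 267 and 345 CPM in the SCA1low libraries, and its difference was -6.88 ± 0.95 (adjusted p = 0.000554). Krt14 and Krt5 had differences of -4.15 ± 0.71 and -4.10 ± 0.79 (adjusted p = 0.00992 and 0.0341); both stepped or lay flat in LY6D+ cells and peaked in LY6D- cells. Secreted genes made up the rest. Defb50 stood at 333 and 361 CPM at SCA1high, 3752 and 4219 at SCA1Int and 7320 and 4436 at SCA1low in LY6D- cells. The high level was thus reached at SCA1Int in LY6D- cells, and at SCA1low in LY6D+ cells. Its difference was -2.58 ± 0.30 (adjusted p = 5e-05). Spink1, Msmb and Pbsn had differences of -2.54 ± 0.38, -3.65 ± 0.64 and -1.84 ± 0.34 (adjusted p = 0.00146, 0.0132 and 0.0213). In LY6D- cells Pbsn stood at 276 and 421 CPM at SCA1high, 3055 and 2545 at SCA1Int and 10660 and 7158 at SCA1low. On the log2 scale SCA1Int thus lay nearer to SCA1low there and nearer to SCA1high in LY6D+ cells. The Pbsn contrast within LY6D- cells was 0.67 ± 0.23 and was not called (adjusted p = 0.332). The count of 7 was 3 without LY6D+ SCA1Int replicate 1, LY6D+ SCA1low replicate 2 or LY6D- SCA1Int replicate 2, 16 without LY6D- SCA1low replicate 1 and 12 without LY6D- SCA1low replicate 2.

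The genes called within LY6D+ cells did not pass in this test. B2m stood at 871 and 935 CPM at SCA1high, 743 and 569 at SCA1Int and 722 and 589 at SCA1low in LY6D- cells, with -0.23 ± 0.33 against the midpoint there. The difference from LY6D+ cells was -1.83 ± 0.47 (adjusted p = 0.424). Malat1 stood at 6085 and 5972 CPM at SCA1high, 10020 and 9205 at SCA1Int and 11880 and 13290 at SCA1low, with 0.14 ± 0.15 in LY6D- cells and a difference of 0.74 ± 0.21 (adjusted p = 0.565). The Malat1 difference was called in 2 of 21 other settings, library size scaling (0.94, adjusted p = 0.046) and no filter on low counts (0.86, adjusted p = 1.48e-08), and the B2m difference in 0 of 21.

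**Figure D4:**
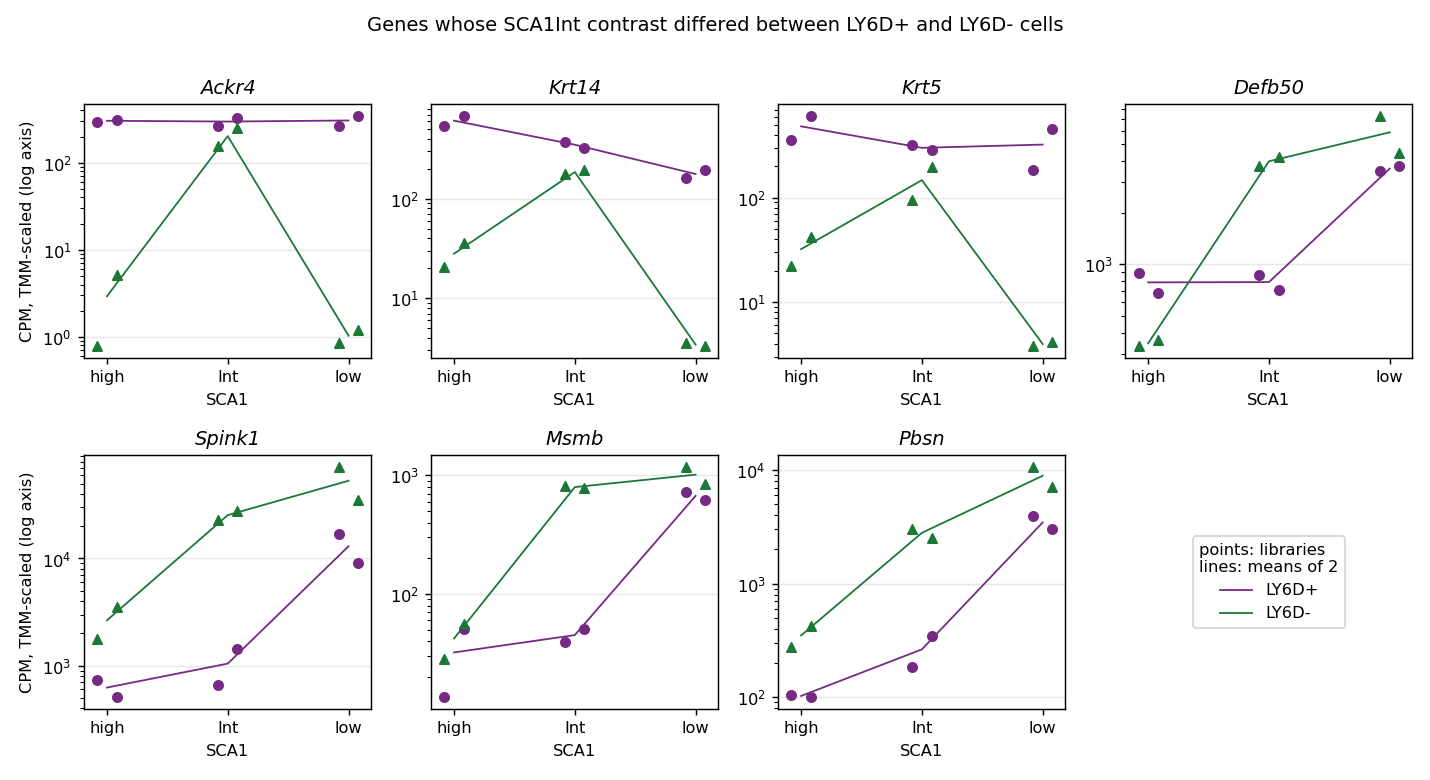
CPM on a log axis by SCA1 level in LY6D+ cells (circles) and LY6D- cells (triangles) for the 7 genes whose SCA1Int contrast differed between them, with points for libraries and lines through means of 2 libraries. Ackr4, Krt14 and Krt5 peak at SCA1Int in LY6D- cells, and Defb50, Spink1, Msmb and Pbsn are already high at SCA1Int in LY6D- cells but not in LY6D+ cells.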

How the data were processed

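RNA of sorted prostate luminal cells was read as Lexogen QuantSeq 3' FWD libraries from 10 to 20 ng of total RNA, per the labels' protocols; reads come from the 3' ends of transcripts, so levels do not scale with transcript length, and no molecular identifiers are named. The raw count of each of 48795 genes was deposited by the authors. A signal table was deposited too: it equals CPM with TMM factors over all genes (largest relative difference 5.1e-15). Build mm10, edgeR, Subread with featureCounts, STAR 2.5.1, Picard 1.96, cutadapt 1.9.1 and SAMtools 1.3.1 are named in the submitters' processing notes; settings and strandedness were not given in the sources used here. Symbols matched 99.1% of identifiers, and the rest held 0.475% of counts. Coordinates are from GENCODE M21 (GRCm38).

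Counts were tested with edgeR 4.0.16 in R 4.3.3 (TMM, filterByExpr by population, a mean for each population, all 12 libraries together, quasi-likelihood test with Benjamini-Hochberg adjustment, 6 residual degrees of freedom, biological coefficient of variation 1.28). Totals ran from 8436185 to 20022077 counts. Alternatives were RLE or library size scaling, no filter, DESeq2 1.42.0, limma-trend (limma 3.58.1) on log2 of the deposited signal plus 1, glmTreat at 1.5-fold, ribosomal features left out, 1 LY6D state alone, SCA1high and SCA1low as 1 group, the replicate number as a block, and each library left out with the same genes tested. Added after seeing the data was a fit without 2 doubted libraries (LY6D+ SCA1high replicate 2 and LY6D- SCA1low replicate 2). The scripts were tested on simulated data with much less spread between replicates than these libraries have, so that test does not give the power reached here.

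Comparison, lists and naming rule were chosen with earlier results of these data known. Ly6d, Ly6a, Krt14 and Pbsn come first. The rule then takes the 12 highest and 12 lowest called genes whose log2 CPM averages 3 or more and that have a symbol, filled to 12 by p with genes whose SCA1Int libraries lie beyond all others; 4 per direction in other comparisons; and up to 4 per list. Gm37376, 9530053A07Rik, Neat1, Calr, Tapbp, H2-K1, Tgm4, Zdhhc3, Dnajc10, Prdx6, Rn7sk, mt-Rnr1, Cdh5, Epcam, Trp63, Krt8 and Krt18 were singled out after their values were seen.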

Additional observations from a re-analysis of the deposited data

Results flagged for a closer look

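The SCA1Int contrast differed between LY6D+ and LY6D- cells, by the test of the difference itself, for 7 genes. On the log2 scale, LY6D+ minus LY6D-, the difference was -2.58 for Defb50, -6.88 for Ackr4, -2.54 for Spink1, -4.15 for Krt14, -3.65 for Msmb, -1.84 for Pbsn and -4.10 for Krt5. Defb50 kept its call in all 21 other settings that tested it and Ackr4 in 20 of 21, Spink1 in 18, Msmb in 15, Krt14 in 14, Krt5 in 11 and Pbsn in 10.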

How the results depend on the processing

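Against both neighbours, the 3 called genes became 17 with no filter on low counts, 198 with DESeq2 (153 higher, 45 lower), 5 with LY6D+ libraries alone, and 0 with glmTreat, limma-trend or SCA1high and SCA1low as 1 group. Leaving out 1 library gave 0 to 8. Against SCA1high, 4 became 28 with no filter, 446 with DESeq2, and 4 to 13 without 1 library. Against SCA1low, 26 became 42 with no filter, 17 with glmTreat, 243 with DESeq2, 5 with limma-trend, and 12 to 36 without 1 library. In LY6D- cells, 18 became 8 with RLE, 34 with no filter, 9 with glmTreat, 890 with DESeq2, 4 with limma-trend, and 8 to 24 without 1 library. For the difference, 7 became 2 with RLE, 20 with no filter, 601 with DESeq2, 1 with limma-trend, and 3 to 16 without 1 library. Against both neighbours singly, 0 became 17 with DESeq2, and 0 to 1 without 1 library. Without both doubted libraries the counts were 5 against both neighbours, 15 against SCA1high and 11 for the difference.

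The replicate number as a block gave 8 calls against both neighbours, 29 in LY6D- cells and 11 for the difference; the 15 correlations of same-numbered deviations ran from -0.144 to 0.091, none above 0.1. All libraries of a replicate number share a prefix in their names, whose meaning the labels do not state, so whether the numbers mark a shared sort or run is not known, and no pairing was assumed. The mean log2(CPM + 1) of SCA1Int less that of the others was -0.303 over endothelial genes (-1.55 to 0.943 without 1 library), -0.378 over luminal genes (-0.789 to 0.032) and -0.954 over secreted proteins (-1.41 to -0.423).

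Among the 100 gene results tried, signs turned for 6, none of them called. Ackr4 against both neighbours, -0.04, was 0.056 with RLE and DESeq2, 0.12 with library size, 0.054 with no filter, 0.032 without ribosomal features, 0.053 with limma-trend, and -0.19 to 0.27 without 1 library. With SCA1high and SCA1low as 1 group, Krt14 was -0.17 and Ly6a -1.14. Without 1 library, Krt14 ran from -0.017 to 0.36, Ly6a from -0.097 to 1.12, Krt5 from -0.65 to 0.22 and Ly6d from -0.87 to 0.19; Ly6d was 0.023 without both doubted libraries. Malat1 in LY6D- cells was -0.16 with RLE and DESeq2 and -0.028 to 0.20 without 1 library. The cause of these shifts was not tested. The number of libraries, 2 per population, limits the precision. Library size scaling moved the median of all genes against both neighbours from 0.085 to 0.213.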

Other observations

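Xist, the nuclear RNA that silences an X chromosome in female cells, was counted almost only in the SCA1Int libraries of these male cells; it was singled out after its values were seen. Xist stood at 16.6 and 24.5 CPM at SCA1Int against 0.045 and 0 at SCA1high and 1.23 and 0.311 at SCA1low in LY6D+ cells, and at 0 and 0.169 CPM at SCA1high, 0.103 and 0 at SCA1Int and 0 and 0.0866 at SCA1low in LY6D- cells. Tsix, which overlaps Xist on the opposite strand, stood at 16.5 and 0 CPM at SCA1Int against 0 and 0 at SCA1high and 1.3 and 0.0778 at SCA1low, so in 1 SCA1Int library both genes held nearly equal levels and in the other Tsix was at 0. The Xist log2 fold change against the midpoint had an unadjusted p of 0.0144 and an adjusted p of 0.758. Ddx3y, a Y-linked gene, stood at 269.7 and 352 CPM at SCA1Int against 62.4 and 118 at SCA1high and 123 and 227 at SCA1low, present in all 6 libraries. Tug1, another nuclear RNA, stood at 83.7 and 58.2 CPM at SCA1Int against 0.045 and 0.353 at SCA1high and 69.5 and 4.12 at SCA1low, with an adjusted p of 0.758 against the midpoint.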
